A study of Homo sapiens with 11 samples.

Results

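The comparison below sets SH-SY5Y cells exposed to H2O2 before differentiation directly against SH-SY5Y cells exposed during it, without the controls of either experiment. It took the 6 H2O2 libraries of the 11 in the series, 3 pre-exposed and 3 co-exposed, joined by miRNA name. SH-SY5Y is a neuroblastoma line, a subline of SK-N-SH, which the labels describe as derived from bone marrow. It is a tumour line and, per the study, its cultures can also hold epithelial-like cells that keep dividing under retinoic acid. All 11 libraries came from cells differentiated with 10 µM all-trans retinoic acid (ATRA) for 7 days. Pre-exposed cells received 10 µM H2O2 for 72 h before ATRA, after which it was removed, and co-exposed cells received 10 µM H2O2 for the 7 days of ATRA. The controls, used below only as a background, were 2 libraries of the pre-treatment experiment and 3 of the co-treatment experiment, all without H2O2.

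Each timing was run as an experiment of its own, so the experiment batch is fully confounded with the timing of exposure. The length of exposure (3 against 7 days), the time since H2O2 was last present and the time in culture before ATRA also differ between the groups. These factors cannot be told apart in the direct comparison, and every difference below is one between 2 sets of 3 libraries. The study calls its samples biological triplicates, and the labels do not say whether the cultures were separate, so the p-values measure the spread between these libraries, which may in part be technical.

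A miRNA is a short RNA that guides the Argonaute protein to messenger RNAs, mostly by pairing of its seed, bases 2 to 8 from its 5′ end, and lowers their translation or stability. miRNAs with the same seed form families with shared targets, and many are made from 1 transcript as a genomic cluster or from an intron of a host gene. Imprinted loci, of which only the copy from one parent is active, hold several miRNA genes, among them the large 14q32 (DLK1-DIO3) cluster, which is active in brain and placenta. ATRA turns SH-SY5Y cells towards a neuron-like form, and H2O2 is a reactive oxygen species used to impose oxidative stress.

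Of the 2576 miRNA names in the files, 2262 matched a mature sequence of RefSeq (GRCh38.p14), as did 684 of the 769 tested. The sequences below belong to the miRNAs on which the results turn, with the seed in capitals and all written 5′ to 3′. The first set was lower in pre-exposed cells and comes from the imprinted 14q32 and H19 loci.
hsa-miR-675-5p: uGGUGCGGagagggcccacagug
hsa-miR-675-3p: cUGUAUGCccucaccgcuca
hsa-miR-323b-3p: cCCAAUACacggucgaccucuu
hsa-miR-323a-3p: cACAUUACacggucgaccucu
hsa-miR-654-3p: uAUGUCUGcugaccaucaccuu
hsa-miR-409-3p: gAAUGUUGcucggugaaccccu
hsa-miR-382-5p: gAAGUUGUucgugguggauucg
The next set was higher in pre-exposed cells and has no seed in common.
hsa-miR-21-5p: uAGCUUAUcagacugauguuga
hsa-miR-335-5p: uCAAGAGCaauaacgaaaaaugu
hsa-miR-340-5p: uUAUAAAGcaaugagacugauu
hsa-miR-101-3p: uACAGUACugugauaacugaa
hsa-miR-301a-3p: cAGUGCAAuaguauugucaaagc
The last set shows members of 2 seed families that were called higher in pre-exposed cells, followed by the members of the same families that were not called.
hsa-miR-15a-5p: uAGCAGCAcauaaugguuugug
hsa-miR-16-5p: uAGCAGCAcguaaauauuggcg
hsa-miR-195-5p: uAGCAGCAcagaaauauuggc
hsa-miR-497-5p: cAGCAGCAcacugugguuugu
hsa-miR-148a-3p: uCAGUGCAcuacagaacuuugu
hsa-miR-152-3p: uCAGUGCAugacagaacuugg
hsa-miR-15b-5p: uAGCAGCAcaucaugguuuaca
hsa-miR-424-5p: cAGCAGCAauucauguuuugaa
hsa-miR-148b-3p: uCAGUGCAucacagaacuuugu

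Totals of the 6 libraries ranged from 5343953 to 8927582 counts, and the 10 most abundant miRNAs took 57.3% to 61.6% of them. Pearson correlations of log2 CPM across miRNAs, which are not independent, were 0.993 to 0.996 between pre-exposed libraries, 0.986 to 0.993 between co-exposed libraries and 0.976 to 0.985 across the groups. Levels are CPM, counts relative to the library total, scaled by TMM over the 11 libraries, and log2FC is pre-exposed minus co-exposed from a fit of the 6 libraries. CPM of different miRNAs compare their counts, since mature miRNAs have nearly the same length. Of the neuronal markers, hsa-miR-137 had a mean of 22531 CPM over the 6 libraries, while hsa-miR-124-3p, the leading miRNA of mature neurons, had at most 7 counts in any of the 6 libraries. Since hsa-miR-124-3p has several hairpins, between which the counting could split or lose reads, its level in the cells is uncertain.

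Many miRNAs differed between the groups. Pre-exposed cells had several-fold lower hsa-miR-483 and hsa-miR-675, which are made from the imprinted growth genes IGF2 and H19, and lower levels of 13 of 36 tested miRNAs of the 14q32 cluster. They had higher hsa-miR-21-5p, hsa-miR-101-3p, hsa-miR-340-5p, hsa-miR-542-3p, hsa-miR-335-5p and hsa-miR-137. Among 769 tested miRNAs, 156 were differentially expressed by edgeR's quasi-likelihood test (FDR below 0.05 and |log2FC| above 0.6), or 20.3% of those tested. Of these, 85 were higher in pre-exposed cells (11.1%) and 71 were lower (9.23%). The libraries of the groups did not overlap for 154 of the 156, and for 319 of all 769 (41.5%). The median log2FC was 0.92 for the miRNAs that were higher, −1.04 for those that were lower and −0.05 over all tested.

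The count rested on the libraries and on the fit. Leaving out pre-exposed replicate 1, 2 or 3 gave 102, 95 or 87 calls, and leaving out co-exposed replicate 1, 2 or 3 gave 86, 215 or 135, while 61 of the 156 (33 higher, 28 lower) were called whichever of the 6 libraries was left out. A single fit of the 11 libraries, which shares its estimate of spread with the controls, called 25, all of them among the 61. Without TMM, scaling to library totals shifted the median of all miRNAs by −0.13 and turned the split to 60 higher and 98 lower, with no call changing sign.

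**Figure D1:**
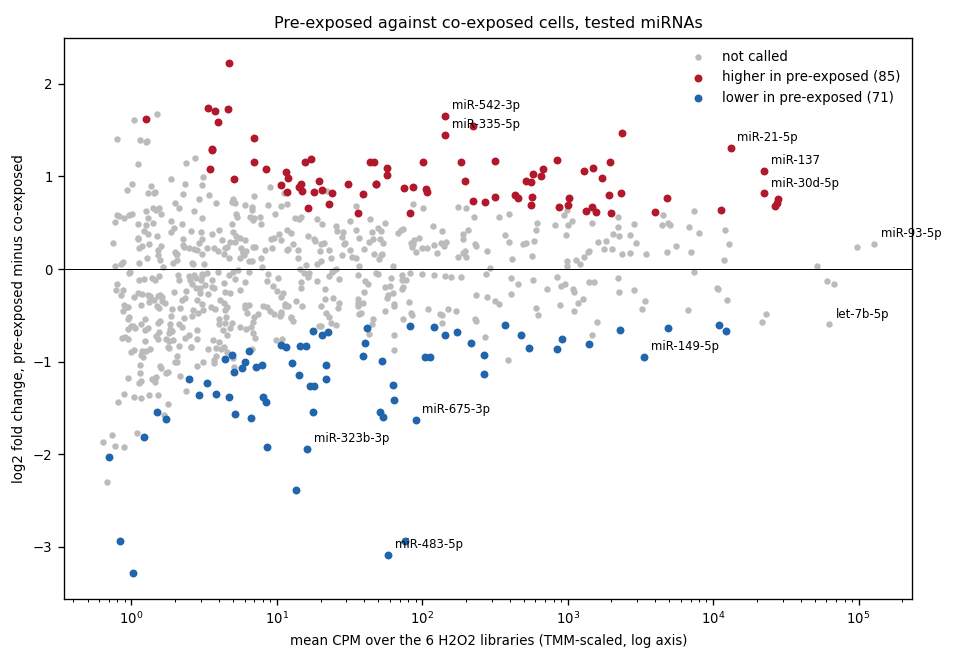
Each point is 1 of the 769 tested miRNAs, with its mean CPM over the 6 H2O2 libraries on a log axis and its log2FC (pre-exposed minus co-exposed). Coloured points are the 85 called higher and the 71 called lower in pre-exposed cells, and the rises of hsa-miR-21-5p and hsa-miR-137 lie at the far right, at means of 13174 and 22531 CPM.

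Among calls with a mean of at least 10 CPM, the largest fall was in hsa-miR-483-5p, whose hairpin lies in IGF2 (GRCh37 chromosome 11, 2155364 to 2155439, minus strand). It had 11.4, 12.9 and 11.996 CPM in the pre-exposed libraries and 117, 119 and 77.2 CPM in the co-exposed libraries. All pre-exposed values were far below all co-exposed values, an 8.51-fold lower level (log2FC −3.09, SE 0.22, FDR = 3.92e-06 from edgeR's quasi-likelihood test). Its other arm, hsa-miR-483-3p, had 18.02, 17.3 and 17.3 CPM against 165, 155 and 86.9 CPM (log2FC −2.94, SE 0.25, FDR = 1.43e-05). Without H2O2 the order was turned for the 5p arm, with 187 and 132 CPM in pre-treatment controls and 41.6, 69.4 and 51.4 CPM in co-treatment controls. The pre-treatment controls of the 3p arm were far apart, at 158 and 25.4 CPM.

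Both arms of hsa-miR-675, which is cut from the H19 RNA and restrains growth of the placenta, were lower as well. hsa-miR-675-3p had 40.2, 48.8 and 42.5 CPM in pre-exposed cells and 172, 136 and 100.2 CPM in co-exposed cells. The groups were well separated (log2FC −1.63, SE 0.22, FDR = 5.79e-04). Of its controls, none lay below 174 CPM, so that the pre-exposed libraries were the lowest of all 11. For hsa-miR-675-5p the values were 4.12, 5.06 and 3.61 CPM against 23.9, 30.8 and 13.4 CPM (log2FC −2.38, SE 0.30, FDR = 3.27e-04), and 1 pre-treatment control, at 6.25 CPM, was close to the pre-exposed level.

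The imprinted MEST locus went the other way. hsa-miR-335-5p, from an intron of MEST (chromosome 7, 130135952 to 130136045), had 198, 241 and 193 CPM in pre-exposed cells and 78.1, 54.2 and 99.0 CPM in co-exposed cells. The pre-exposed libraries were all higher (log2FC 1.45, SE 0.24, FDR = 0.00172), while the pre-treatment controls, at 31.3 and 15.1 CPM, were the lowest of the 11 libraries. Its partner arm hsa-miR-335-3p was at 9.83 to 15.5 CPM in pre-exposed and 8.13 to 12.5 CPM in co-exposed libraries, overlapping ranges (log2FC 0.20, SE 0.26, FDR = 0.583). Over the 6 tested miRNAs of these imprinted hosts, 1 was called higher and 4 lower, with a median log2FC of −2.005. These are both arms of hsa-miR-483, hsa-miR-675 and hsa-miR-335, so they are not independent. Of all tested miRNAs 11.1% were higher and 9.23% lower.

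**Figure D2:**
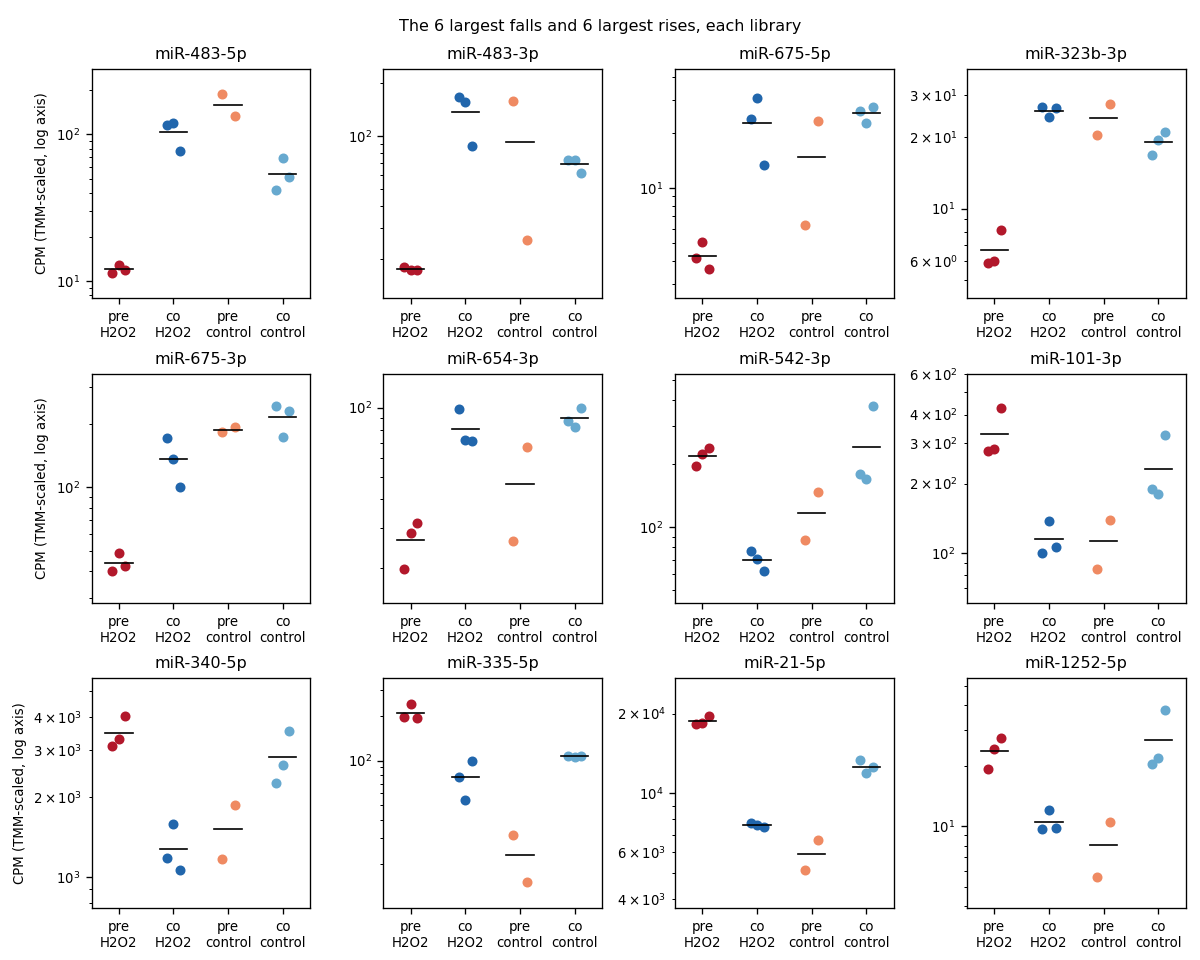
Each point is the TMM-scaled CPM (log axis) of 1 library, and bars are group means. Panels show the 6 largest falls and 6 largest rises among calls without overlap at a mean of at least 10 CPM. The 3 pre-exposed and 3 co-exposed libraries are apart in every panel by that choice. For hsa-miR-21-5p, hsa-miR-335-5p and hsa-miR-340-5p both pre-treatment controls lie below all pre-exposed libraries.

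The 14q32 cluster is a run of miRNA genes expressed from the maternal chromosome. Of its 92 names in the files, 36 were tested, and 13 of these (36.1%) were lower in pre-exposed cells, where 9.23% of all tested miRNAs were, while 23 were not called and none was called higher, where 11.1% of all tested were. The median log2FC of the 36 was −0.80, and −1.04 for the 15 with a mean of at least 10 CPM, where the median of all such miRNAs was 0.13. In all, 31 of the 36 had a log2FC below 0. Between the controls, without H2O2, the median log2FC of members with a value was also below 0, at −0.46. The effect of H2O2 against each experiment's own controls differed between the experiments for 8 of the 36. The 56 names not tested had at most 13 counts in any of the 6 libraries. The median stayed between −0.98 and −0.65 when single libraries were left out, and 10 of the 13 calls were made in every such fit, while 5 of the 13 were made in the single fit of 11 libraries. Since a miRNA could pass the filter on 3 libraries of 1 group, the tested members are not a sample of the cluster.

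Among members called at a mean of at least 10 CPM, the largest fall was that of hsa-miR-323b-3p (chromosome 14, 101522556 to 101522637), with 5.89, 6.05 and 8.09 CPM in pre-exposed cells and 26.6, 24.2 and 26.5 CPM in co-exposed cells. No values overlapped, and the level was 3.85-fold lower (log2FC −1.94, SE 0.22, FDR = 1.61e-04), and all controls lay between 16.9 and 27.5 CPM. hsa-miR-654-3p had 19.8, 28.3 and 31.4 CPM against 98.2, 72.1 and 71.2 CPM (log2FC −1.60, SE 0.23, FDR = 8.98e-04). hsa-miR-409-3p and hsa-miR-323a-3p fell by 1.54 and 1.42 on the log2 scale. hsa-miR-134-5p, a brain miRNA known to limit the size of dendritic spines through LIMK1, had 7.30, 10.97 and 11.3 CPM against 21.8, 32.5 and 17.8 CPM (log2FC −1.26, SE 0.26, FDR = 0.00568). hsa-miR-382-5p and hsa-miR-369-5p had log2FC of −1.26 and −1.27.

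The cluster did not shift as a block. hsa-miR-379-5p and hsa-miR-411-5p, named here after their values were seen, are among its more abundant members (chromosome 14, 101488366 to 101488491 and 101489662 to 101489757). hsa-miR-379-5p had 47.1, 65.2 and 62.6 CPM against 63.3, 53.3 and 71.5 CPM. The ranges overlapped for both, with log2FC of −0.10 (SE 0.21) and −0.18 (SE 0.23). hsa-miR-543 was at the detection limit in pre-exposed cells, with 3, 1 and 0 counts against 12, 12 and 9 counts. In the controls, hsa-miR-409-3p, hsa-miR-382-5p and hsa-miR-134-5p were far apart in the pre-treatment pair (31.3 and 147, 42.3 and 184, and 14.8 and 54.1 CPM).

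**Figure D3:**
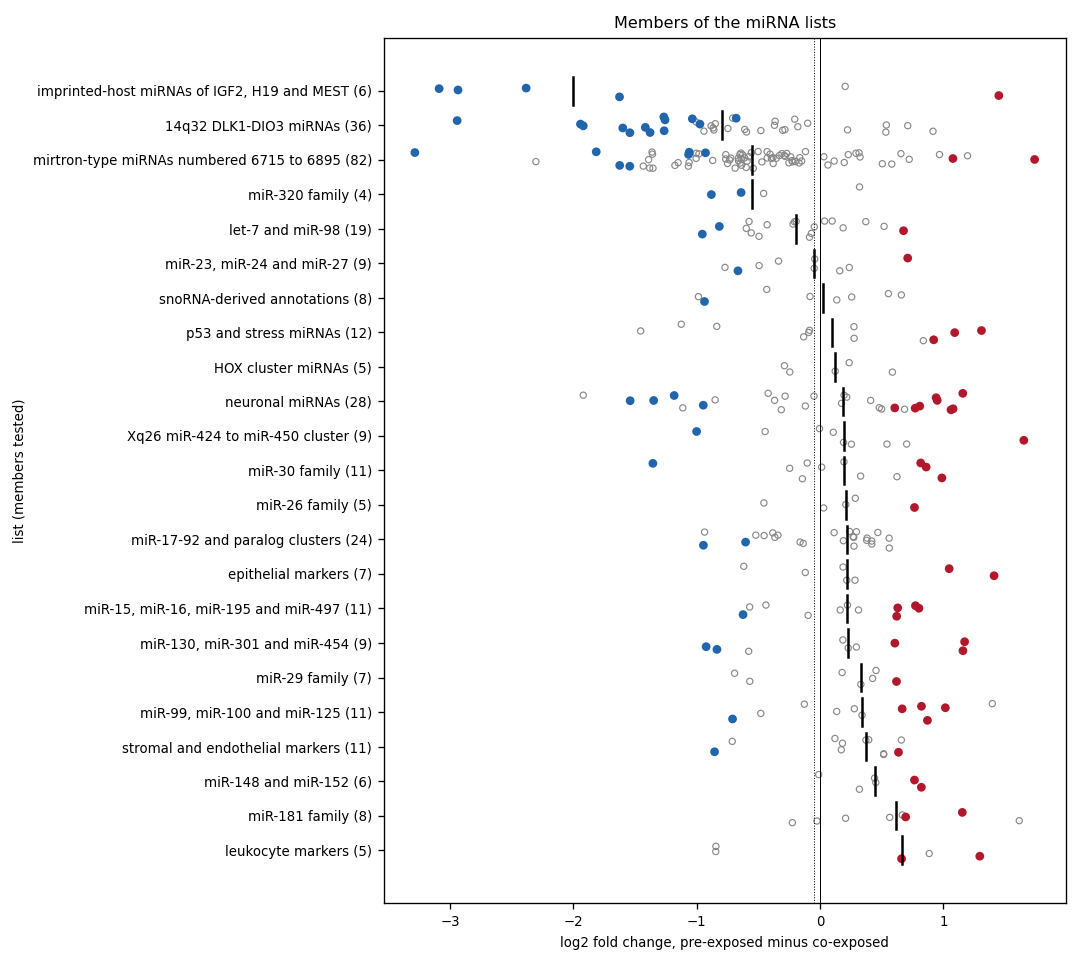
Each point is a tested miRNA, placed by its log2FC (pre-exposed minus co-exposed) in the list it belongs to, for lists with at least 4 tested members. Filled points were called, black bars are list medians and the dotted line is the median of all tested miRNAs. The imprinted-host list (median −2.005) and the 14q32 list (median −0.80) lie furthest to the left.

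Among the miRNAs that were higher in pre-exposed cells, hsa-miR-21-5p stood out for its abundance. It is a widely studied growth- and stress-linked miRNA, and its hairpin overlaps VMP1 (chromosome 17, 57918627 to 57918698). Its level was 18216, 18442 and 19533 CPM in pre-exposed cells and 7747, 7638 and 7468 CPM in co-exposed cells. The spread within each group was small beside the 2.48-fold difference (log2FC 1.31, SE 0.13, FDR = 7.87e-05). The controls were in the opposite order, at 5144 and 6657 CPM in pre-treatment and 13359, 11905 and 12582 CPM in co-treatment. Its partner arm hsa-miR-21-3p was higher too (log2FC 1.09, SE 0.24, FDR = 0.00729).

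Among calls with a mean of at least 10 CPM, the largest rise was in hsa-miR-542-3p, of the Xq26 cluster that also makes hsa-miR-424 and hsa-miR-503. It had 194, 222 and 238 CPM in pre-exposed cells and 77.1, 70.8 and 61.8 CPM in co-exposed cells. The level was 3.14-fold higher in pre-exposed cells, with no overlap (log2FC 1.65, SE 0.19, FDR = 1.61e-04). Its neighbour hsa-miR-503-5p was level between the groups (log2FC −0.0051), and hsa-miR-424-3p was lower in pre-exposed cells at −1.001, so that of the 9 tested members of the cluster 1 was called in each direction. That is 22.2% of the cluster, against 20.3% of all tested miRNAs.

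hsa-miR-101-3p, which targets the chromatin enzyme EZH2, had 277, 282 and 428 CPM in pre-exposed cells and 99.6, 138 and 106 CPM in co-exposed cells. The pre-exposed libraries were all higher (log2FC 1.54, SE 0.22, FDR = 7.46e-04), although this miRNA comes from more than 1 hairpin, between which the counting could split or lose reads. For hsa-miR-340-5p, from an intron of RNF130, levels were 3122, 3301 and 4030 CPM against 1182, 1579 and 1062 CPM (log2FC 1.47, SE 0.18, FDR = 2.85e-04). hsa-miR-301a-3p, of the miR-130 family and hosted by SKA2, had 2834, 2298 and 2979 CPM against 1267, 1511 and 902 CPM (log2FC 1.16, SE 0.19, FDR = 0.00172). The other rises among the 12 largest at a mean of at least 10 CPM were hsa-miR-1252-5p, hsa-miR-301b, hsa-miR-345-3p, hsa-miR-374a-3p, hsa-miR-651-5p and hsa-miR-1287-5p, with log2FC from 1.16 to 1.19. hsa-miR-345-3p was the one of these 12 not called in every fit that left out a library (5 of 6). Below that level some called differences were larger, and hsa-miR-548ba (log2FC 2.22 at a mean of 4.67 CPM) and hsa-miR-6851-5p (−3.29 at 1.03 CPM), named here after their values were seen, were the largest of all in each direction. hsa-miR-548ba was called in every fit that left out a library and hsa-miR-6851-5p in 3 of the 6. So near the filter of 0.936 CPM, a miRNA low in 1 group can be tested through the other group alone.

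The most abundant miRNAs of the cells moved less. hsa-miR-93-5p, of the miR-17 seed family that drives the cell cycle, led with 120099, 128037 and 168287 CPM in pre-exposed and 108271, 122836 and 116979 CPM in co-exposed libraries. These ranges overlapped (log2FC 0.27, SE 0.15, FDR = 0.186). Of the 10 most abundant, hsa-miR-26b-5p (0.76), hsa-miR-27b-3p (0.71) and hsa-let-7i-5p (0.68) were higher in pre-exposed cells, of which hsa-miR-26b-5p and hsa-let-7i-5p were called in 5 and 4 of the 6 fits that left out a library and were no longer called, at 0.36 and 0.44, once each library's trend on the GC content of the mature sequence was removed. hsa-let-7b-5p had a log2FC of −0.5988, just inside the threshold and not called, and hsa-miR-10b-5p, hsa-miR-25-3p, hsa-miR-125a-5p, hsa-miR-191-5p and hsa-miR-99b-5p were not called, with log2FC from −0.48 to 0.24.

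Neuronal miRNAs moved in both directions. Of 28 tested, 8 were higher in pre-exposed cells, 4 lower and 16 not called, with a median log2FC of 0.18, where 11.1% of all tested miRNAs were higher and 9.23% lower. hsa-miR-137, a brain-enriched miRNA of neuronal maturation, had 27959, 27385 and 35844 CPM in pre-exposed cells and 16695, 13986 and 13318 CPM in co-exposed cells. The lowest pre-exposed value was well above the highest co-exposed value, a 2.09-fold difference (log2FC 1.06, SE 0.16, FDR = 0.00106). Pre-treatment controls had 10068 and 19810 CPM and co-treatment controls 30192 to 34972 CPM.

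hsa-miR-138-5p, known from dendritic spines, had 792, 675 and 724 CPM in pre-exposed cells against 355, 527 and 276 CPM in co-exposed cells (log2FC 0.94, SE 0.21, FDR = 0.00845). The groups did not overlap, but it was called in 3 of the 6 fits that left out a library, and it has 2 hairpins between which reads could be split. hsa-miR-488-3p, hsa-miR-153-5p, hsa-miR-7-5p and hsa-miR-212-5p were also higher, with log2FC of 0.95, 0.81, 0.77 and 0.61, of which hsa-miR-7-5p (0.35) and hsa-miR-212-5p (0.55) were not called with the GC trend removed. hsa-miR-212-5p was called in 2 of the 6 fits that left out a library, and hsa-miR-7-5p has more than 1 hairpin. hsa-miR-9-3p and hsa-miR-9-5p were called higher from mean levels of 6.997 and 3.498 CPM over the 6 libraries and have 3 hairpins, so both are uncertain. On the lower side, hsa-miR-149-5p had 2513, 2588 and 1789 CPM against 4872, 3761 and 4673 CPM (log2FC −0.95, SE 0.19, FDR = 0.00461). The other falls were in hsa-miR-129-1-3p (−1.54), hsa-miR-129-2-3p (−1.18) and hsa-miR-7-2-3p (−1.35), the last at a mean of 3.85 CPM.

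Among families with a shared seed, the AGCAGCA family, whose members restrain the cell cycle and BCL2, had 6 members at a mean of at least 10 CPM. Of all 398 miRNAs at that level, 72 were called higher and 47 lower. Of the 6 members, 4 were higher in pre-exposed cells, namely hsa-miR-15a-5p (log2FC 0.80, SE 0.17), hsa-miR-16-5p (0.77, SE 0.17), hsa-miR-497-5p (0.63, SE 0.20) and hsa-miR-195-5p (0.62, SE 0.16). hsa-miR-15a-5p had 2204, 2407 and 2747 CPM against 1466, 1638 and 1167 CPM, with both pre-treatment controls lower, at 989 and 1172 CPM, and all co-treatment controls higher, at 3042 to 3555 CPM. The members did not all share a direction. hsa-miR-15b-5p lay below 0 (−0.44, SE 0.14) and hsa-miR-424-5p above it (0.54), neither of them called. The cause was not tested. hsa-miR-195-5p and hsa-miR-497-5p were called in 3 and 1 of the 6 fits that left out a library, and hsa-miR-15a-5p (0.56) and hsa-miR-195-5p (0.41) were not called with the GC trend removed. hsa-miR-16-5p has 2 hairpins, which leaves its level uncertain.

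The CAGUGCA family, which targets the DNA methyltransferase DNMT1, had 3 members of that abundance, where 72 of all 398 such miRNAs were called higher. hsa-miR-152-3p had 5995, 6327 and 5797 CPM against 3505, 3563 and 3664 CPM (log2FC 0.76, SE 0.14, FDR = 0.00293), and hsa-miR-148a-3p a log2FC of 0.82 (SE 0.17), both called in every fit that left out a library, although hsa-miR-148a-3p, at 0.58, was not called with the GC trend removed. hsa-miR-148b-3p had a log2FC of 0.45 and was not called. In the let-7 seed family (GAGGUAG), which promotes differentiation, 1 of 9 members was called, and in the miR-17 seed family (AAAGUGC) none of 5 was, with log2FC from −0.14 to 0.42.

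In the miR-30 list, 3 of 11 tested were higher and 1 lower, where 11.1% of all tested miRNAs were higher and 9.23% lower. hsa-miR-30d-5p had 29341, 26595 and 29299 CPM against 15976, 19162 and 13819 CPM (log2FC 0.82, SE 0.14, FDR = 0.00226), and its controls were in the same order, at 22196 and 18030 CPM in pre-treatment and 10073 to 13846 CPM in co-treatment. Of the miR-181 list 2 of 8 were higher (median log2FC 0.62), of the miR-99, miR-100 and miR-125 list 4 of 11 were higher and 1 lower (median 0.34), and of the miR-130, miR-301 and miR-454 list 3 of 9 were higher and 2 lower (median 0.23). Of the miR-320 list 2 of 4 were lower, and in the miR-17-92 clusters 2 of 24, hsa-miR-18a-3p and hsa-miR-25-5p, were lower and none higher. By share called either way, the miR-181 list (25%) was close to the 20.3% of all tested, and the miR-17-92 clusters (8.33%) were below it. Between the controls the medians were −0.28 for the miR-181 list, 0.62 for miR-99, miR-100 and miR-125 and −1.09 for miR-130, miR-301 and miR-454. No call of the miR-99, miR-100 and miR-125 list held in every fit that left out a library. hsa-miR-130a-3p, whose libraries overlapped, and hsa-miR-181c-3p were called in 1 of these 6 fits, hsa-miR-320c and hsa-miR-25-5p in 2. hsa-miR-301a-3p, hsa-miR-301b and hsa-miR-18a-3p were called in all 6.

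Among p53 and stress miRNAs, 3 of 12 tested were higher and none lower, where 11.1% of all tested miRNAs were higher and 9.23% lower. Besides both arms of hsa-miR-21 the call was in hsa-miR-34c-5p, a p53-induced miRNA. It had 17.7, 18.4 and 21.5 CPM in pre-exposed cells and 10.2, 9.82 and 10.5 CPM in co-exposed cells (log2FC 0.92, SE 0.21, FDR = 0.00810). All controls lay below both groups, between 3.20 and 6.25 CPM. Its abundant relative hsa-miR-34a-5p, named here after its values were seen, had a log2FC of 0.27 (SE 0.15) and was not called. Over the list the median log2FC was 0.09, and 6 of the 12 had a log2FC below 0. Among these were hsa-miR-34c-3p (−1.13), hsa-miR-34b-3p (−0.84) and hsa-miR-210-5p (−1.45), none of them called, at means of 1.16, 2.55 and 1.79 CPM. Mirtron-type miRNAs, cut from short introns without Drosha, had a median log2FC of −0.55 over 82 tested, with 2 higher and 7 lower, and most were near the detection limit, with 2 of the 82 at a mean of at least 10 CPM. The HOX cluster miRNAs, the miR-183 cluster, miR-221 and miR-222, and miR-103 and miR-107 had no call among 5, 3, 2 and 3 tested, and there was 1 call each way among 9 in miR-23, miR-24 and miR-27, 1 higher of 7 in miR-29 and of 5 in miR-26, and 1 lower of 8 among snoRNA-derived annotations. Calls made up 22.2% of miR-23, miR-24 and miR-27, 20% of miR-26, 14.3% of miR-29 and 12.5% of snoRNA-derived annotations, against 20.3% of all tested. With both arms counted, let-7 and miR-98 had 1 higher and 2 lower of 19, the miR-15, miR-16, miR-195 and miR-497 list 4 higher and 1 lower of 11, and miR-148 and miR-152 had 2 higher of 6.

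Markers of other cell types had calls towards pre-exposed cells and members with a log2FC of either sign. Of all tested miRNAs 11.1% were higher and 9.23% lower. The liver marker hsa-miR-122-5p had 540, 655 and 858 CPM in pre-exposed cells and 326, 208 and 528 CPM in co-exposed cells (log2FC 0.95, SE 0.31, FDR = 0.0428), and was called in 2 of the 6 fits that left out a library and not with the GC trend removed (0.78). Summed over their tested members, erythroid markers were at 9.07 to 15.5 against 5.76 to 9.73 CPM (1 of 3 higher), leukocyte markers at 39.6 to 41.0 against 20.8 to 31.0 CPM (2 of 5 higher), muscle markers at 32.6 to 37.0 against 18.5 to 25.3 CPM (1 of 3 higher) and epithelial markers at 91.1 to 92.7 against 77.4 to 84.6 CPM (2 of 7 higher). In the 6 fits that left out a library, hsa-miR-146a-5p and hsa-miR-499a-5p were called in 1. There, hsa-miR-142-5p, hsa-miR-141-3p and hsa-miR-200a-3p were called in 3 and hsa-miR-144-5p in 4. hsa-miR-142-5p and hsa-miR-144-5p had means of 3.57 and 3.76 CPM. The pre-treatment controls were far apart, at 31.4 and 116 CPM for leukocyte and 68.5 and 195 CPM for epithelial markers. Members of these lists with a log2FC below 0, none of them called, included hsa-miR-486-5p (−1.19) of the erythroid, hsa-miR-150-5p (−0.85) and hsa-miR-223-3p (−0.85) of the leukocyte and hsa-miR-200c-3p (−0.62) of the epithelial list. Both arms of hsa-miR-133a and hsa-miR-133b, which define muscle, had no count in the 6 libraries, and hsa-miR-155-5p of leukocytes had at most 7. Of 11 stromal and endothelial markers, hsa-miR-143-3p was higher (log2FC 0.64, and 0.56 and not called with the GC trend removed) and hsa-miR-145-5p lower (−0.86), both of which come from 1 transcript, and the summed level of the list was 34013 to 36174 against 25827 to 29070 CPM. The part of other cells in the results was not tested, and in bulk RNA fewer cells of a type and less RNA per cell cannot be told apart.

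The controls give the difference between the experiments without H2O2. None of 857 miRNAs (0%) was called between the 2 pre-treatment and 3 co-treatment controls by the quasi-likelihood test, where 254 had an unadjusted p under 0.05 and the lowest FDR was 0.0570. edgeR's exact test called 120 and DESeq2 called 134 on the same libraries, so the experiments cannot be taken as alike without H2O2. The pre-treatment controls had a correlation of 0.947 with each other, below that of any pair of replicates in the other groups. Of the 156 miRNAs called between pre-exposed and co-exposed cells, 154 had a value in the controls, and for 107 of them (69.5%) the sign was opposite there. Over all 741 miRNAs with both values this share was 65.7%.

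For 47 of the 154 the control difference had the same sign as the difference between exposed cells. Among them were hsa-miR-654-3p and hsa-miR-675-5p, with control log2FC of −0.83 and −0.69, and on the higher side hsa-miR-1287-5p (0.63) and hsa-miR-30d-5p (0.94). In hsa-miR-483-5p, hsa-miR-335-5p, hsa-miR-301a-3p and hsa-miR-15a-5p the control log2FC was 1.72, −2.03, −1.43 and −1.50, against −3.09, 1.45, 1.16 and 0.80 with H2O2.

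**Figure D4:**
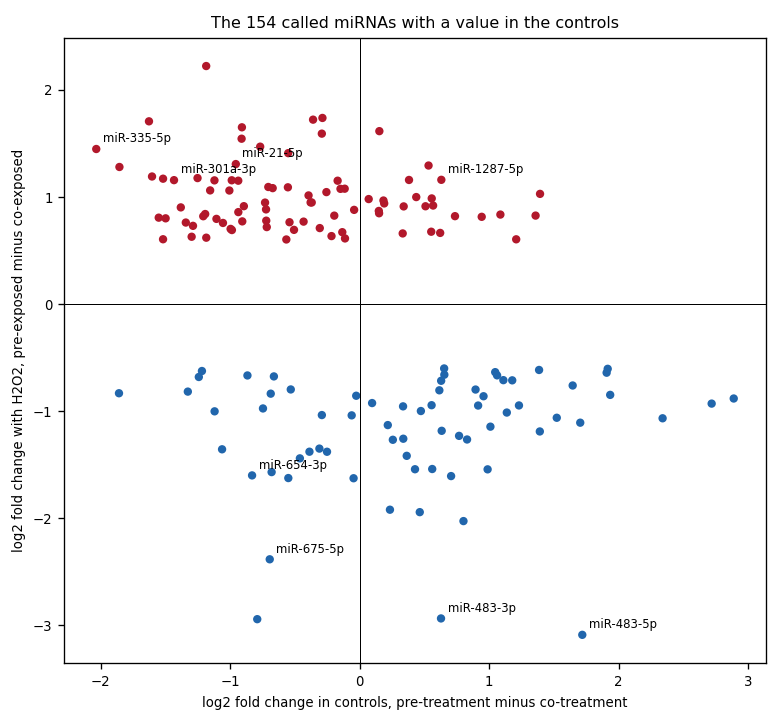
Each point is 1 of the 154 called miRNAs with a control value, with the log2FC of the controls (pre-treatment minus co-treatment) on the horizontal axis and that of the exposed cells on the vertical axis. Points at the upper left and lower right, 107 in all, have opposite signs, and the axes share no library.

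When each experiment's own controls were subtracted, in a fit of all 11 libraries, the effect of H2O2 differed between the experiments for 248 of 882 miRNAs (28.1%), 134 in the direction of a more positive effect in pre-treatment and 114 in that of a more negative one. This fit holds the same exposed libraries as the direct comparison and adds the differences between the controls, so the values do not repeat it. For hsa-miR-30d-5p the difference in effect was 0.01 (SE 0.32), where the direct log2FC was 0.82, and for hsa-miR-1287-5p it was 0.67 (FDR = 0.216). hsa-miR-675-5p, at −1.61 (FDR = 0.0693), and hsa-miR-654-3p, at −0.66 (FDR = 0.329), did not pass either, while hsa-miR-675-3p passed at −1.43 (FDR = 0.0168).

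The balance of both arms of a hairpin is a ratio within a library and so does not depend on library scaling. For 198 hairpins with both arms tested, limma called 17 (8.59%), 9 towards the 5p arm in pre-exposed cells and 8 towards the 3p arm. hsa-miR-369 had 38.5%, 30.0% and 29.2% of its reads on the 5p arm in pre-exposed cells and 63.7%, 60.1% and 62.4% in co-exposed cells. hsa-miR-299, also of 14q32, had 60.7%, 46.1% and 42.0% against 80.4%, 78.8% and 81.2%, from low mean levels of 8.09 (5p) and 3.85 (3p) CPM. Both groups were apart in each, and the 5p shares of the controls ran from 45.0% to 73.8% for hsa-miR-369 and from 48.7% to 86.7% for hsa-miR-299.

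In the opposite direction, hsa-miR-424 had 94.3%, 91.8% and 91.9% on the 5p arm in pre-exposed cells against 81.0%, 84.6% and 76.2% in co-exposed cells, and hsa-miR-340 had 99.0% to 99.3% against 96.2% to 97.4%. The next largest differences towards the 5p arm were in hsa-miR-671, hsa-miR-335 and hsa-miR-26b, and towards the 3p arm in hsa-miR-130a, hsa-miR-374b and hsa-miR-2681. A ratio of this kind shows that the arms changed unequally, not which of them changed. The number of calls was fragile, at 0 without pre-exposed replicate 2 or co-exposed replicate 1, 2 without pre-exposed replicate 1, 1 without pre-exposed replicate 3, 5 without co-exposed replicate 3 and 37 without co-exposed replicate 2.

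The base composition of the mature miRNA moved with the difference. Among 351 miRNAs with a mean of at least 10 CPM and a known sequence (88.2% of 398), the median log2FC was 0.40 at a GC content up to 40%, 0.19 above 40 and up to 50%, −0.12 above 50 and up to 60%, and −0.08 above 60%. The correlation across these miRNAs, which share the same 6 libraries, was −0.30 (Pearson) and −0.30 (Spearman). Of the larger rises, hsa-miR-340-5p (27.3% GC) went from a log2FC of 1.47 to 0.80 when each library's trend on GC content was removed, hsa-miR-1252-5p (22.7%) from 1.19 to 0.41 and hsa-miR-374a-3p (22.7%) from 1.18 to 0.41. hsa-miR-21-5p (36.4%) kept 0.98 and hsa-miR-101-3p (33.3%) 1.09. The falls in hsa-miR-675-5p (−2.37), hsa-miR-323b-3p (−1.89) and hsa-miR-654-3p (−1.75) were nearly as large or larger. With the trend removed 41 miRNAs were called higher and 53 lower, against 61 and 41 among the same 351 miRNAs without it.

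**Figure D5:**
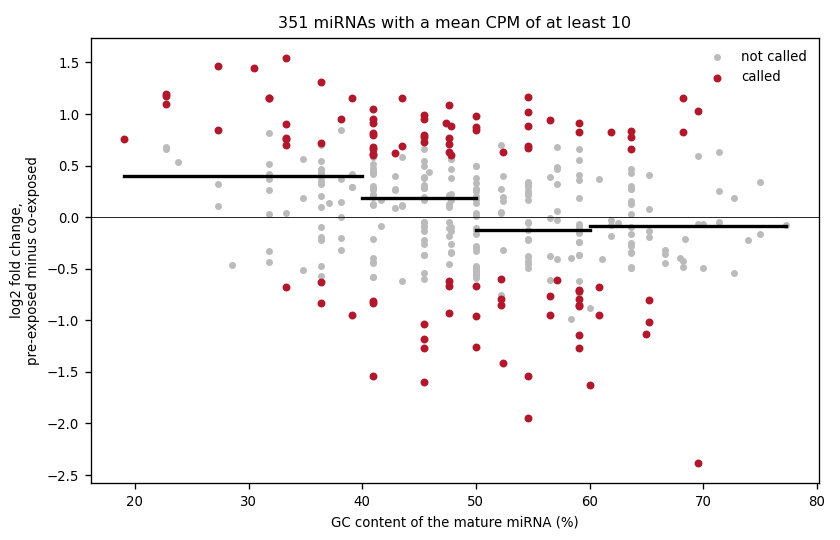
Each point is 1 of 351 miRNAs with a mean of at least 10 CPM, placed by the GC content of its mature sequence (%) and its log2FC (pre-exposed minus co-exposed), with called miRNAs in red. Black bars are the medians of 4 ranges of GC content, which go from 0.40 at the lowest to −0.08 at the highest.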

How the data were processed

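Small RNA was sequenced with the QIAseq miRNA kit on a NextSeq 500. The authors used Cutadapt 2.10 for trimming and Bowtie2 2.4.1 for alignment to hg19, and made the count of each mature miRNA with htseq-count 0.7.2, and these counts were deposited without normalization. Use of molecular identifiers, the strand setting and the miRBase release are not given in the sources used here. The authors' deposited tables of log2 fold changes, log2 CPM, p-values and FDR for treated against control cells were not used.

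Both count tables were joined by miRNA name. A miRNA was tested if at least 3 of the 6 libraries exceeded 0.936 CPM, equal to 5 counts at the lowest depth. Tests used edgeR 4.0.16 (quasi-likelihood test, TMM, Benjamini-Hochberg) in R 4.3.3, and calls needed FDR below 0.05 and |log2FC| above 0.6. The methods give an exact test for treated against control only, which was tried as an alternative. SE is |log2FC| divided by the square root of F. Arm balance was tested with limma 3.58.1 on log2((5p + 0.5)/(3p + 0.5)) of counts. Alternatives included DESeq2 1.42.0. Controls were filtered in at least 2 libraries. The scripts were tested on simulated data. Totals of 5343953 to 8927582 counts put 3 counts, taken as the detection limit, at 0.336 to 0.561 CPM, which covers counting error only. Hairpin positions are from GENCODE on GRCh37.

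Named are the 12 largest rises and falls among calls without overlap at a mean of at least 10 CPM, the 10 most abundant, called and extreme list members, members of 2 seed families, and the 5 largest arm differences each way. Members and lists were chosen with earlier results of these data known.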

Additional observations from a re-analysis of the deposited data

Results flagged for a closer look

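The effect of H2O2 against each experiment's own controls differed between pre-treatment and co-treatment for 248 miRNAs by a test of the difference itself (edgeR's quasi-likelihood test, FDR below 0.05 and absolute difference above 0.6). That is 28.1% of the 882 tested. The values below are for named miRNAs of the direct comparison, which uses the same exposed libraries, so they are not independent of it. A more negative effect in pre-treatment was found for hsa-miR-483-5p (difference in log2FC −4.66), hsa-miR-483-3p (−3.36), hsa-miR-323b-3p (−2.28), hsa-miR-134-5p (−2.02), hsa-miR-129-1-3p (−2.01), hsa-miR-409-3p (−1.88), hsa-miR-323a-3p (−1.62) and hsa-miR-675-3p (−1.43). A more positive effect was found for hsa-miR-335-5p (3.67), hsa-miR-1252-5p (2.91), hsa-miR-301b (2.83), hsa-miR-301a-3p (2.74), hsa-miR-542-3p (2.68), hsa-miR-101-3p (2.57), hsa-miR-374a-3p (2.56), hsa-miR-651-5p (2.399), hsa-miR-21-5p (2.39) and hsa-miR-340-5p (2.35). These rest on 2 pre-treatment controls, without replicate 2 of which the count was 431. No group had the 4 libraries needed to look for a library far from the others.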

How the results depend on the processing

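Of the 156 calls between exposed groups, 156 were also made by edgeR's exact test (183 calls), 147 by DESeq2, 131 with library-size scaling and 151 with DESeq2 size factors. The count was 72 above an absolute log2FC of 1, 25 in one fit of 11 libraries, and 94 with the GC trend removed against 102 for the same miRNAs without that step, and lay between 86 and 215 with each library left out. hsa-miR-590-3p was the one call to change sign (−0.077 with the GC trend removed). For the controls, the count of 0 became 120 with the exact test, 134 with DESeq2, 60 with DESeq2 size factors, 115 without the low-count filter, 61 with the filter in every library, 36 at a mean CPM of at least 10, 227 in one fit of 11 libraries, 2 with the GC trend removed and 38 for the same miRNAs without that step, and 0 to 323 with each library left out (43 and 323 without pre-treatment control 1 or 2). The difference in effect between experiments was called for 173 to 431 miRNAs with each library left out. Arm balance gave 33 calls with a pseudocount of 5 counts, 33 with both arms at a mean CPM of at least 10, and 0 to 37 with each library left out. Of 29 list medians, 23 were above 0, and 19 with library-size scaling.

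Replicate numbers are shared in the labels. Deviations of same-numbered libraries correlated at 0.0038, −0.12 and −0.19, and those of unlike number at −0.070 to 0.16. With so few libraries in a group these values cannot show whether the libraries were paired. With the replicate number as a block there were 166 calls, 119 for the difference in effect, and 0 for arm balance.

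Over 132 named miRNAs and their alternatives, 1940 of 2263 values kept their direction and side of the threshold, 279 fell below it and 25 passed it. Besides hsa-miR-590-3p, which was at 0.76, those that changed sign were not called. These were hsa-miR-191-5p (−0.098 with library size, −0.018 to 0.082 with each library left out), hsa-miR-183-5p (−0.0038 with library size, −0.11 with the GC trend removed, −0.0044 to 0.22 with each library left out), hsa-let-7a-3p (−0.088, −0.37 and −0.15 to 0.15 in the same settings), hsa-miR-503-5p (0.0051 with DESeq2 size factors, 0.017 with the block, 0.066 with the GC trend removed, −0.16 to 0.21 with each library left out), hsa-miR-369-3p (from 0.54 to −0.20) and hsa-miR-182-5p (−0.064) with the GC trend removed, and, with each library left out, hsa-miR-34a-3p (−0.29 to 0.053) and hsa-miR-379-5p (−0.28 to 0.027). The cause of these changes was not tested. Depth limits what can be said of miRNAs under about 10 CPM.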
